A study of Mus musculus with 6 samples.

Results

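The genes described are the mouse cytochrome P450 genes of the Cyp2, Cyp3 and Cyp4 families, the UDP-glucuronosyltransferase genes of Ugt1 and Ugt2, the sulfotransferase genes (Sult) and the flavin-containing monooxygenase genes (Fmo). Members were chosen by gene symbol alone, with no use of a measured value, and 119 of the 55367 symbols listed for every library met the rule. They were 48 Cyp2, 7 Cyp3, 17 Cyp4, 9 Ugt1, 10 Ugt2, 21 Sult and 7 Fmo genes. Of these, 39 were listed at 0 in every library, and a further 10 never rose above 3 reads in any library. An FPKM of 1 or more was reached in 2 or more libraries by 42 members, which were tested. Of the 42, 6 passed only through 1 group, namely Cyp2c23, Cyp3a13, Sult4a1 and Ugt2a3 through ADPKD+MMPP, Cyp2d12 through WT and Ugt2b34 through ADPKD. All 119 are annotated genes of GENCODE vM21 on GRCm38.

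RNA was sequenced from kidney tubular epithelial cells that, by the methods, had been pulled out of digested kidneys with DBA, a lectin used to capture cells of the collecting duct. The extraction label names DBA-positive cells and whole-kidney RNA side by side, so that how far each library was enriched is uncertain. WT libraries carried intact Pkd1 and were given saline, ADPKD libraries were Pkd1-/- and were given saline, and ADPKD+MMPP libraries were Pkd1-/- and were given MMPP, a PEG-coated melanin-like nanoparticle loaded with Mn2+, by vein. Each group had 2 libraries, all labelled Day115. Pkd1 fl/fl;Cre/Esr1+ male mice had lost Pkd1 after tamoxifen, so the deletion was not limited to 1 tubule segment by the methods as written. Whether the 2 libraries of a group came from separate animals was not stated in the labels, and p-values then measure the spread between these libraries only.

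Enzymes of these families chemically alter drugs, dietary compounds and the body's own lipids and steroids. P450s and flavin-containing monooxygenases add oxygen, and glucuronosyltransferases and sulfotransferases then attach a sugar acid or a sulfate that makes the product soluble enough to leave in urine or bile. In the kidney most of them are known from the proximal tubule, whereas the CYP4A and CYP2J enzymes are also known for turning arachidonic acid into lipid mediators that act on vessels and sodium transport.

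Some features of the libraries touch every comparison. Depth was 30.6 to 33.0 M reads in the WT and ADPKD libraries and 10.9 to 11.8 M reads in the ADPKD+MMPP libraries. When FPKM was turned back into reads, 33.8% to 35.7% of the read numbers were odd in WT and ADPKD against 7.08% and 7.25% in ADPKD+MMPP, a difference in how the values arose that goes with the treatment and cannot be told apart from it. Pkd1 FPKM was 17.7 and 17.2 in WT, 7.64 and 8.91 in ADPKD, and 4.34 and 3.99 in ADPKD+MMPP. The summed FPKM of 18 proximal tubule markers was 641 to 880 in WT, 1529 to 2161 in ADPKD and 23763 to 24911 in ADPKD+MMPP. Most of the ADPKD+MMPP sum was Kap, at 12820 and 12120, and Gpx3, at 8789 and 8321. In ADPKD+MMPP against ADPKD 15 of the 18 were called higher and 0 lower, against 27.9% and 43.0% of all tested genes. Slc22a8 did not follow the sum, with 4.71 and 1.22 FPKM in WT and 2.04 and 1.22 in ADPKD+MMPP. The 11 principal cell markers summed to 2534 to 3376 in WT, 3308 to 4355 in ADPKD and 9516 to 9642 in ADPKD+MMPP. Liver markers summed to 6.14 to 10.2 in WT and ADPKD and to 56.7 and 65.2 in ADPKD+MMPP, of which Ttr made up 47.4 and 54.1 and Alb at most 1.80. Sums in WT, ADPKD and ADPKD+MMPP were 302 to 312, 30.3 to 82.4 and 257 to 266 for intercalated cells, 900 to 1231, 90.8 to 205 and 87.2 to 89.7 for podocytes, 654 to 786, 294 to 312 and 117 to 118 for endothelium, and 67.9 to 68.3, 523 to 633 and 1160 to 1212 for macrophages. The macrophage sum hides a split among its 7 markers, of which limma called 4 up and 3 down when MMPP libraries were set beside ADPKD. Lyz2 went from 188 and 224 FPKM to 568 and 565, but Csf1r from 17.0 and 25.6 to 0.381 and 0.191. The part of these marker shifts in the results was not tested. In bulk RNA fewer cells of a type and less RNA per cell cannot be told apart.

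The sums of each family by library are shown beside the marker sums. Over all members FPKM came to 370 and 340 in WT, 338 and 300 in ADPKD, and 1639 and 1599 in ADPKD+MMPP. Cyp4 made up the largest share in WT, at 220 and 217, and Cyp2 in ADPKD+MMPP, at 713 and 714. Ugt2 showed the widest spread between groups, with 4.14 and 3.09 in WT, 41.4 and 7.12 in ADPKD, and 361 and 324 in ADPKD+MMPP. The Cyp2 sums of WT and ADPKD overlapped, and the Cyp4 sums of ADPKD lay below those of both other groups.

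**Figure D1:**
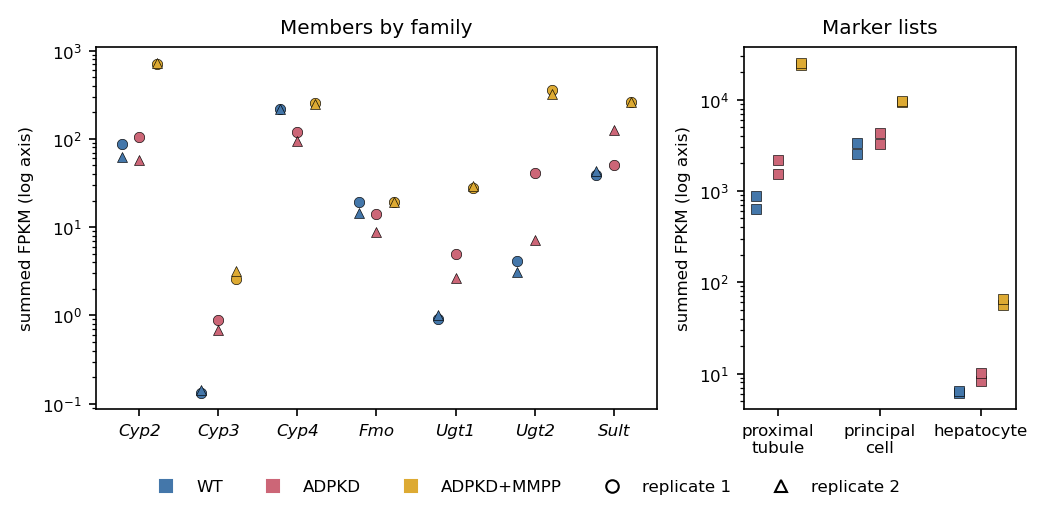
Summed FPKM of the members of each family (left, log axis) and of 3 marker lists (right, log axis), 1 symbol per library, with circles and triangles for replicates 1 and 2 on the left and squares for libraries on the right. Ugt2 reached 361 and 324 in ADPKD+MMPP against 4.14 and 3.09 in WT, and Cyp4 summed to 120 and 95.8 in ADPKD against 220 and 217 in WT.

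In ADPKD against WT, 11 of the 42 tested members were called higher, against 14.2% of all tested genes, and 6 lower, against 12.5% of all tested genes, where a call needed a fold change of at least 1.5 and an unadjusted P under 0.05 in limma on log2(FPKM + 1). As shares of the 42 these were 26.2% and 14.3%. Quantile normalization gave 8 higher and 7 lower, against 13.3% and 14.3% of all tested genes. The centring described with the annotation also gave 8 and 7, against 13.7% and 13.6% of the 12378 protein-coding genes so centred. The median log2 fold change was 0.26 over the tested members and 0.03 over all tested genes, and 10 of the 17 called members kept an adjusted p under 0.05 (limma, Benjamini-Hochberg). By family, the higher and lower calls were 1 and 3 of 16 in Cyp2, 2 and 2 of 10 in Cyp4, 3 and 1 of 4 in Sult, 2 and 0 of 2 in Ugt1, 2 and 0 of 5 in Ugt2, 0 and 0 of 4 in Fmo, and 1 and 0 of 1 in Cyp3. Of the 4 Fmo genes only Fmo5 had an unadjusted P under 0.05 in limma, with a log2 change of -0.43, short of the fold threshold. Every conjugating member that was called, apart from Sult1a1, was thus higher in ADPKD. Among them Ugt2b34 passed the filter only through ADPKD and Sult4a1 only through ADPKD+MMPP, so the pattern is no support for a direction. Only Ugt1a7c and Ugt2b34 of those higher kept an adjusted p under 0.05 (limma), as did Sult1a1 of those lower.

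Cyp4b1, which hydroxylates short fatty acids and some xenobiotics, was the most abundant member in WT, at 190 and 192 FPKM, and lay at 76.5 and 64.3 in ADPKD. It fell by 1.43 on the log2 scale (SE 0.13, limma adjusted p = 0.00338), and the groups did not overlap. Cyp2d22, a Cyp2d enzyme related to human CYP2D6, went from 20.1 and 18.8 FPKM to 11.0 and 9.25, a fall of 0.88 (SE 0.13, limma adjusted p = 0.00823). Both genes thus had clearly separated groups and close replicates. Cyp4a32, a fatty acid omega-hydroxylase gene, had 4.83 and 4.10 FPKM in WT and 1.57 and 0.751 in ADPKD (log2 change -1.36, SE 0.21, limma adjusted p = 0.0087). Cyp2d12 had 1.90 and 1.25 FPKM in WT, then 0.140 in 1 ADPKD library and a listed 0 in the other. It passed the filter only through WT, so its lower call is no support for a direction. Sult1a1, the phenol sulfotransferase, had 17.4 and 22.9 FPKM in WT and 6.86 and 12.05 in ADPKD, and fell by 1.05 (SE 0.27, limma adjusted p = 0.0376). Cyp2d9 had 3.08 and 1.59 FPKM in WT and 1.40 and 0.376 in ADPKD, and its adjusted p was 0.113 (limma).

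Of the members that were higher in ADPKD, 5 kept an adjusted p under 0.05 (limma), namely Cyp3a13, Cyp4f17, Cyp4f18, Ugt1a7c and Ugt2b34. Cyp4f17, of a subfamily that hydroxylates fatty acids and leukotrienes, had 3.62 and 3.11 FPKM in WT and 9.47 and 8.64 in ADPKD (1.21, SE 0.13, limma adjusted p = 0.0042). Ugt1a7c had 0.791 and 0.911 FPKM in WT and 2.95 and 2.11 in ADPKD (0.92, SE 0.15, limma adjusted p = 0.0108). In both genes the lower ADPKD library lay above the higher WT library. Ugt2b34, another glucuronosyltransferase gene, had 0.258 and 0.240 FPKM in WT and 3.48 and 2.34 in ADPKD. It was tested only because of its level in ADPKD, and Cyp3a13 only because of its level in ADPKD+MMPP, so their calls are no support for a direction.

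Other members differed widely between the 2 ADPKD libraries. Ugt2b37, a glucuronosyltransferase of steroids and bile acids by its subfamily, had 0.898 and 0.972 FPKM in WT but 23.1 and 2.52 in ADPKD, and its log2 fold change of 2.25 carried an SE of 0.84 (limma adjusted p = 0.102). Sult1d1, a sulfotransferase of catecholamines and eicosanoids, had 15.5 and 15.2 FPKM in WT and 24.4 and 108 in ADPKD (1.68, SE 0.63, limma adjusted p = 0.104). Sult1c2 had 3.56 and 2.62 FPKM in WT and 16.8 and 5.56 in ADPKD (1.41, SE 0.45, limma adjusted p = 0.0704). These 3 passed the unadjusted threshold without overlap of the groups but not the adjusted one. Ugt2b38 and Cyp2j5, at 12.5 and 1.53 FPKM and at 28.5 and 4.95 FPKM in ADPKD, overlapped the WT libraries and were not called. ADPKD replicate 1 was above replicate 2 in 34 of the 42 tested members (81.0%), in 17 of the 18 proximal tubule markers and in 8 of 10 tested principal cell markers, against 52.9% of all tested genes. Without ADPKD replicate 2 the count of members called higher rose to 17, with Cyp2c23, Cyp2j5, Cyp2j13, Cyp4a31, Ugt2b38 and Ugt2b5 added, and without ADPKD replicate 1 it was 8 higher and 11 lower.

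**Figure D2:**
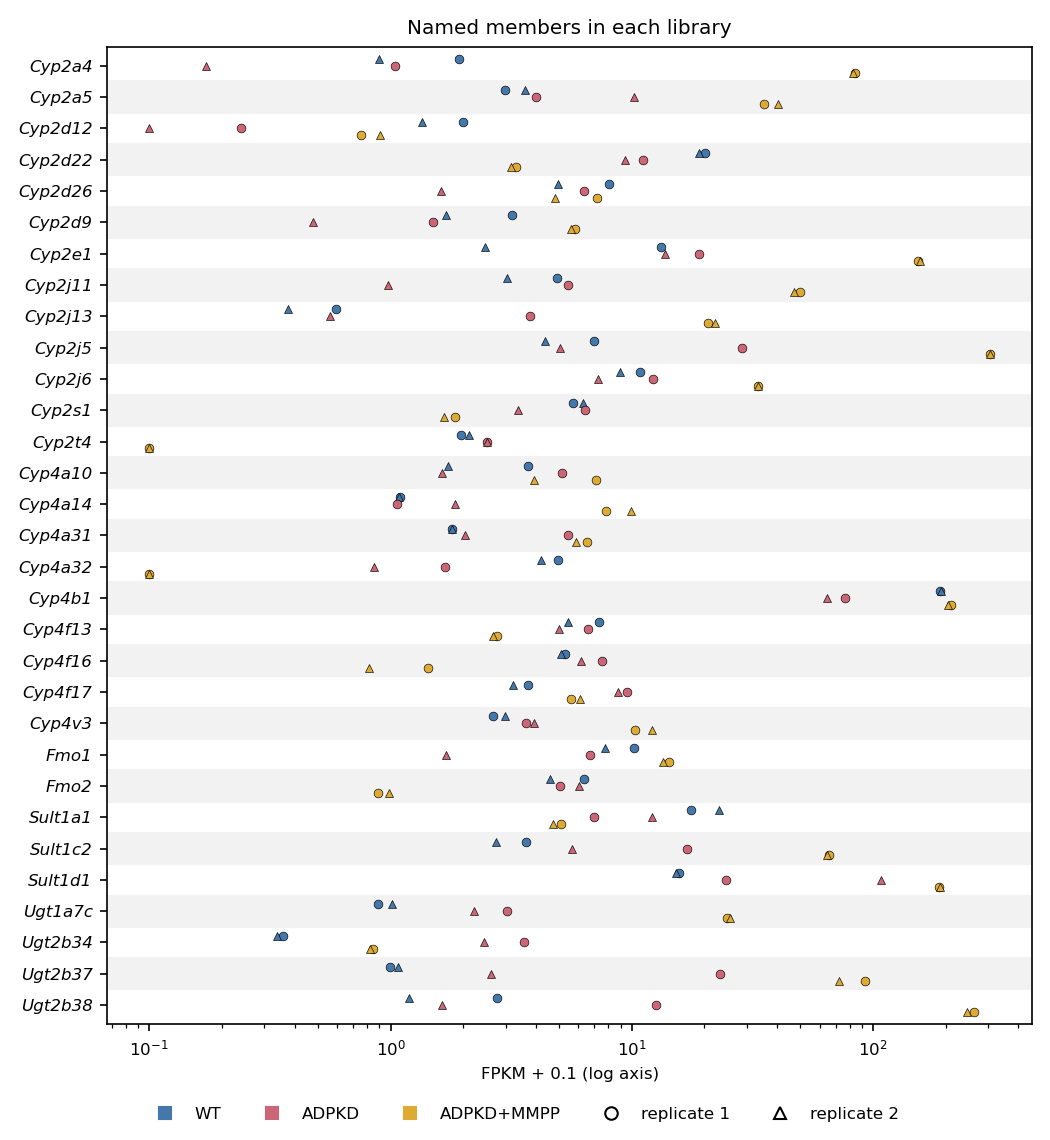
FPKM plus 0.1 (log axis) of the 31 named members, 1 symbol per library, coloured by group and with circles and triangles for replicates 1 and 2, so that a listed 0 lies at 0.1. ADPKD symbols lie far apart in genes such as Ugt2b37 (23.1 and 2.52 FPKM) and Cyp2j5 (28.5 and 4.95 FPKM), whereas the ADPKD+MMPP symbols of these genes lie close together.

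In ADPKD+MMPP against ADPKD, 26 of the 42 tested members were called higher in limma, against 27.9% of all tested genes, and 9 lower, against 43.0% of all tested genes. These were 61.9% and 21.4% of the tested members. Of those called higher, Cyp2c23, Cyp3a13, Sult4a1 and Ugt2a3 had passed the filter only through ADPKD+MMPP. Ugt2b34, called lower, had passed only through ADPKD, so these calls are no support for a direction. The median log2 fold change was 1.05 over the members and -0.36 over all tested genes, and all 35 calls kept an adjusted p under 0.05 (limma, Benjamini-Hochberg). Higher and lower calls were 10 and 3 of 16 in Cyp2, 3 and 3 of 10 in Cyp4, 3 and 1 of 4 in Fmo, 3 and 1 of 4 in Sult, 2 and 0 of 2 in Ugt1 and 4 and 1 of 5 in Ugt2, and Cyp3a13, the only tested Cyp3 gene, was called higher. Quantile normalization gave 30 higher and 4 lower, against 36.1% and 30.8% of all tested genes. Centring by annotation gave 24 and 0, against 33.8% and 24.5% of the 12378 protein-coding genes so centred.

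The 4 members with the highest FPKM in ADPKD+MMPP were Cyp2j5, Ugt2b38, Cyp4b1 and Sult1d1. Cyp2j5, an arachidonic acid epoxygenase of the kidney, had 6.90 and 4.28 FPKM in WT, 28.5 and 4.95 in ADPKD, and 305 and 304 in ADPKD+MMPP. It rose over ADPKD by 4.53 on the log2 scale (SE 0.72, limma adjusted p = 0.0019). The neighbouring Cyp2j genes, from 96027534 to 96664154 on chromosome 4 of GRCm38, moved the same way in 4 of the 5 tested, with Cyp2j9 short of the fold threshold. Cyp2j11 had 5.35 and 0.879 FPKM in ADPKD and 49.9 and 47.0 in ADPKD+MMPP (3.84, SE 0.56), Cyp2j13 had 3.69 and 0.459 against 20.7 and 21.97 (3.09, SE 0.52), and Cyp2j6 had 12.1 and 7.17 against 33.3 and 33.4 (1.73, SE 0.24). None of these 4 called Cyp2j genes shared a stretch of 100 bases with another gene. Cyp2j5 and Cyp2j6 differed at 326 of 1503 coding bases.

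Cyp2a4, a steroid 15-alpha-hydroxylase, and Cyp2a5, the coumarin 7-hydroxylase, are a close pair on chromosome 7, with 23 differences in 1482 coding bases (98.4% identity). Stretches of 100 bases shared with another gene made up 11.2% of the Cyp2a4 transcript and 14.4% of the Cyp2a5 transcript, so part of the reads cannot be given to either gene with certainty. Coding exon 4 of each is printed because it shows how few bases separate the 2 counts, with the 5 differing bases in capitals, read from GRCm38 on the plus strand at chr7:26308928-26309088 for Cyp2a4 and chr7:26837091-26837251 for Cyp2a5.
Cyp2a4: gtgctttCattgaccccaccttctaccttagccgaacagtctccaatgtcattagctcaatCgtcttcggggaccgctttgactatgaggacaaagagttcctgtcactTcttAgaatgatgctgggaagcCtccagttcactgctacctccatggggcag
Cyp2a5: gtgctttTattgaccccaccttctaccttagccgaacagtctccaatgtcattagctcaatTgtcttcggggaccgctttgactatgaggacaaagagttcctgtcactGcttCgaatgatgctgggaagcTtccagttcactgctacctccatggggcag
Cyp2a4 had 1.83 and 0.799 FPKM in WT, 0.939 and 0.072 in ADPKD, and 83.9 and 82.8 in ADPKD+MMPP, a log2 fold change over ADPKD of 5.87 (SE 0.34, limma adjusted p = 5.12e-05). Cyp2a5 had 2.87 and 3.52 FPKM in WT, 3.89 and 10.1 in ADPKD, and 35.4 and 40.2 in ADPKD+MMPP (2.39, SE 0.38, limma adjusted p = 0.00187). The order of the pair thus differed between groups, with Cyp2a5 the higher in every WT and ADPKD library and Cyp2a4 the higher in both ADPKD+MMPP libraries. That switch depends on the processing, since centring brought the changes over ADPKD close together, to 4.71 for Cyp2a4, which has 1 transcript, and 4.04 for Cyp2a5, which has 5. Cyp2e1, which oxidises ethanol and other small molecules, had 13.2 and 2.36 FPKM in WT, 18.9 and 13.6 in ADPKD, and 153 and 156 in ADPKD+MMPP (3.19, SE 0.64, limma adjusted p = 0.00502).

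Ugt2b38 had 2.66 and 1.09 FPKM in WT, 12.5 and 1.53 in ADPKD, and 262 and 246 in ADPKD+MMPP, a log2 fold change over ADPKD of 5.45 (SE 0.76, limma adjusted p = 0.00115). Ugt2b37 reached 92.6 and 72.1 FPKM in ADPKD+MMPP (3.17, SE 0.84, limma adjusted p = 0.0151). Ugt2b5 had 2.28 and 0.722 FPKM in ADPKD and 4.10 and 4.04 in ADPKD+MMPP (1.09, SE 0.32, limma adjusted p = 0.0226). These 3 genes lie on the minus strand of chromosome 5 between 87124960 and 87424203, and Ugt2b37 and Ugt2b38 differ at 94 of 1590 coding bases (94.1% identity). Ugt2b38 and Ugt2b5 shared 24.2% and 24.7% of their stretches of 100 bases with another gene, and Ugt2b37 shared 1.06%. The promoters of the 3 genes, from 120 bases before to 30 bases after the start site, are printed because they share the nuclear receptor half-site AGGTCA, in capitals, at positions -22, -39 and -25 from the start in the order shown. They come from RefSeq on GRCm38.p6, minus strand, at chr5:87140311-87140460, chr5:87254759-87254908 and chr5:87424174-87424323.
Ugt2b5: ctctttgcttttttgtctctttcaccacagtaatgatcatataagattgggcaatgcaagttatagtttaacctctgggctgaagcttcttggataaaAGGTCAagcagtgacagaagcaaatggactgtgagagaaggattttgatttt
Ugt2b37: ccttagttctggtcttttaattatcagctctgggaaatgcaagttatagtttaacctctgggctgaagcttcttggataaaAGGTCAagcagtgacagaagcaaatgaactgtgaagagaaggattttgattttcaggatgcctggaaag
Ugt2b38: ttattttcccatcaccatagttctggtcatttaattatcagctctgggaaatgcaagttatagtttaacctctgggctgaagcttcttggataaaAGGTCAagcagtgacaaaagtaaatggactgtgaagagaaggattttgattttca
AGGTCA, searched on both strands of the 300 bases around each start, was in 32 of the 99 member genes that had a promoter sequence (32.3%) and in 18.1% of all genes. It was in 8 of the 21 such members that were higher in ADPKD+MMPP than in ADPKD and in 2 of the 11 other tested ones. Letters of the same 300 bases matched the HNF1 half-site GTTAAT in 22 of the 99 member genes (22.2%), 4 of them among the 21, and in 8.24% of all genes. The HNF4 letters CAAAGTCCA were in 9 of the 99 (9.09%) and in 0.555% of all genes, but in 0 of the 32 tested members with a promoter. The CRE TGACGTCA was in 0 of the 99 and in 2.03% of all genes. The antioxidant response core TGACNNNGC was in 6 of the 99 (6.06%) and in 14.0% of all genes, and the dioxin response core GCGTG in 16 (16.2%) and 35.2%. A match is a description of the letters and not a bound site.

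Ugt2b34 had 3.48 and 2.34 FPKM in ADPKD, the group through which it passed the filter, and 0.746 and 0.723 in ADPKD+MMPP. Centring turned its log2 change from -1.16 to 0.56, but at so low a level in ADPKD it cannot show whether the gene fell. Ugt2a3 was listed at 0 in both WT libraries and 1 ADPKD library, with 0.029 FPKM in the other, and had 1.36 and 1.30 FPKM in ADPKD+MMPP. Sult1d1, at 87554645 to 87569027 on chromosome 5, reached 188 and 189 FPKM (1.85, SE 0.63, limma adjusted p = 0.0377). Between it and Ugt2b38 lie Ugt2a1, Ugt2a2 and Sult1b1, all listed at 0 in both ADPKD+MMPP libraries. Sult1c2 had 65.8 and 64.5 FPKM (2.61, SE 0.45, limma adjusted p = 0.00272). Sult1a1 was called lower, at 5.002 and 4.62 FPKM (log2 change -0.80, SE 0.27, limma adjusted p = 0.0348). That call was lost after quantile normalization (-0.33) and without ADPKD replicate 2 (-0.44), and centring turned it into a higher call (0.98).

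The Ugt1a genes are spliced from own first exons to common later exons on chromosome 1, so a read of a common exon cannot be given to 1 gene. Of the 9 Ugt1 genes, 2 were listed at 0 throughout and 2 passed the filter. Exon bases shared with another gene made up 54.6% of Ugt1a7c, and stretches of 100 bases shared with another gene made up 68.8% of Ugt1a7c and 62.9% of Ugt1a2. Ugt1a7c, which glucuronidates phenols and drugs, had 24.6 and 25.5 FPKM in ADPKD+MMPP, a log2 fold change over ADPKD of 2.90 (SE 0.15, limma adjusted p = 4.04e-05). Ugt1a2 had 0.059 and 0.058 FPKM in WT, 1.71 and 0.324 in ADPKD and 2.57 and 3.11 in ADPKD+MMPP. Ugt1a8 and Ugt1a9 share 59.2% and 59.9% of their exon bases with other genes but were listed at 0 in every library. Reads of the common exons were thus not counted for those 2 genes. How common exons entered the values of Ugt1a7c and Ugt1a2 was not tested, so both are to be read with care.

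Cyp4b1 had 211 and 205 FPKM in ADPKD+MMPP, above both WT libraries, a log2 fold change over ADPKD of 1.55 (SE 0.13, limma adjusted p = 0.000167) and over WT of 0.12 (SE 0.13, limma adjusted p = 0.414). After centring it was called higher than WT, at 1.79. The 3 members that were lower in ADPKD than in WT and higher in ADPKD+MMPP than in ADPKD were Cyp4b1, Cyp2d9 and Cyp2d12. Of these, Cyp2d12 passed the filter only through WT, so its lower call is no support for a direction. Cyp2d9 had 5.70 and 5.48 FPKM in ADPKD+MMPP, above both WT libraries, and Cyp2d12 had 0.655 and 0.803, below both. The reverse, higher in ADPKD and lower in ADPKD+MMPP, was called for Ugt2b34 only. Centring ended its lower call, but at its low level in ADPKD even a complete loss would not have stayed called. Another 7 members were higher in both comparisons (Cyp3a13, Sult1c2, Sult1d1, Sult4a1, Ugt1a2, Ugt1a7c and Ugt2b37) and 3 were lower in both (Cyp2d22, Cyp4a32 and Sult1a1). Among the 7, Cyp3a13 and Sult4a1 passed the filter only through ADPKD+MMPP, so their calls are no support for a direction. In the second comparison alone 16 members were called higher and 5 lower, in the first alone 3 were called higher, and 4 were called in neither. The comparisons share the ADPKD libraries, so their calls are not independent.

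The Cyp4 members were called in both directions, but no lower call was left after centring. Cyp4a14, a fatty acid omega-hydroxylase, had 0.965 and 1.75 FPKM in ADPKD and 7.75 and 9.87 in ADPKD+MMPP (2.07, SE 0.20, limma adjusted p = 0.000283), and Cyp4v3, the mouse counterpart of human CYP4V2, had 3.55 and 3.83 against 10.2 and 12.1 (1.37, SE 0.13, limma adjusted p = 0.000287). Cyp4a10 and Cyp4a31 were not called, with 5.05 and 1.54 against 6.99 and 3.82 FPKM and 5.36 and 1.94 against 6.41 and 5.77 FPKM, and both were called higher after centring, at 2.78 and 2.82. Their near copy Cyp4a32, with 43 differences from Cyp4a10 in 1527 coding bases (97.2% identity), had a listed 0 in either ADPKD+MMPP library, so no fold change is given. Stretches of 100 bases shared with another gene made up 20.1% of Cyp4a32, 12.7% of Cyp4a10 and 8.22% of Cyp4a31, which leaves their split uncertain. Cyp4f16 had 7.46 and 6.06 FPKM in ADPKD and 1.32 and 0.717 in ADPKD+MMPP (log2 change -1.95, SE 0.19, limma adjusted p = 0.00026), and Cyp4f13 went from 6.49 and 4.88 to 2.67 and 2.56 (-0.88, SE 0.19, limma adjusted p = 0.00638). After centring the log2 changes of Cyp4f16 and Cyp4f13 were -0.23 and -0.22. Cyp4a32 lost its call too, but from a listed 0 centring cannot show whether it fell.

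Of the other Cyp2 members called lower, Cyp2d22 had 3.21 and 3.05 FPKM in ADPKD+MMPP (log2 change -1.43, SE 0.13, limma adjusted p = 0.000225), Cyp2s1 had 1.75 and 1.56 against 6.30 and 3.29 in ADPKD (-1.08, SE 0.26, limma adjusted p = 0.01), and Cyp2t4 had a listed 0 in either ADPKD+MMPP library against 2.42 and 2.40 in ADPKD. Cyp2d26 was not called, with 6.21 and 1.51 FPKM in ADPKD and 7.09 and 4.71 in ADPKD+MMPP. Fmo1 and Fmo2, neighbours on chromosome 1, were called in opposite directions, of which only the call of Fmo1 held after centring. Fmo1, the main monooxygenase of mouse kidney, had 10.1 and 7.67 FPKM in WT, 6.63 and 1.598 in ADPKD, and 14.2 and 13.3 in ADPKD+MMPP (over ADPKD 1.73, SE 0.49, limma adjusted p = 0.019). Fmo2 had 6.22 and 4.46 FPKM in WT, 4.93 and 5.94 in ADPKD, and 0.785 and 0.882 in ADPKD+MMPP (over ADPKD -1.81, SE 0.18, limma adjusted p = 0.000277). After centring their changes were 2.39 for Fmo1 and -0.09 for Fmo2.

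**Figure D3:**
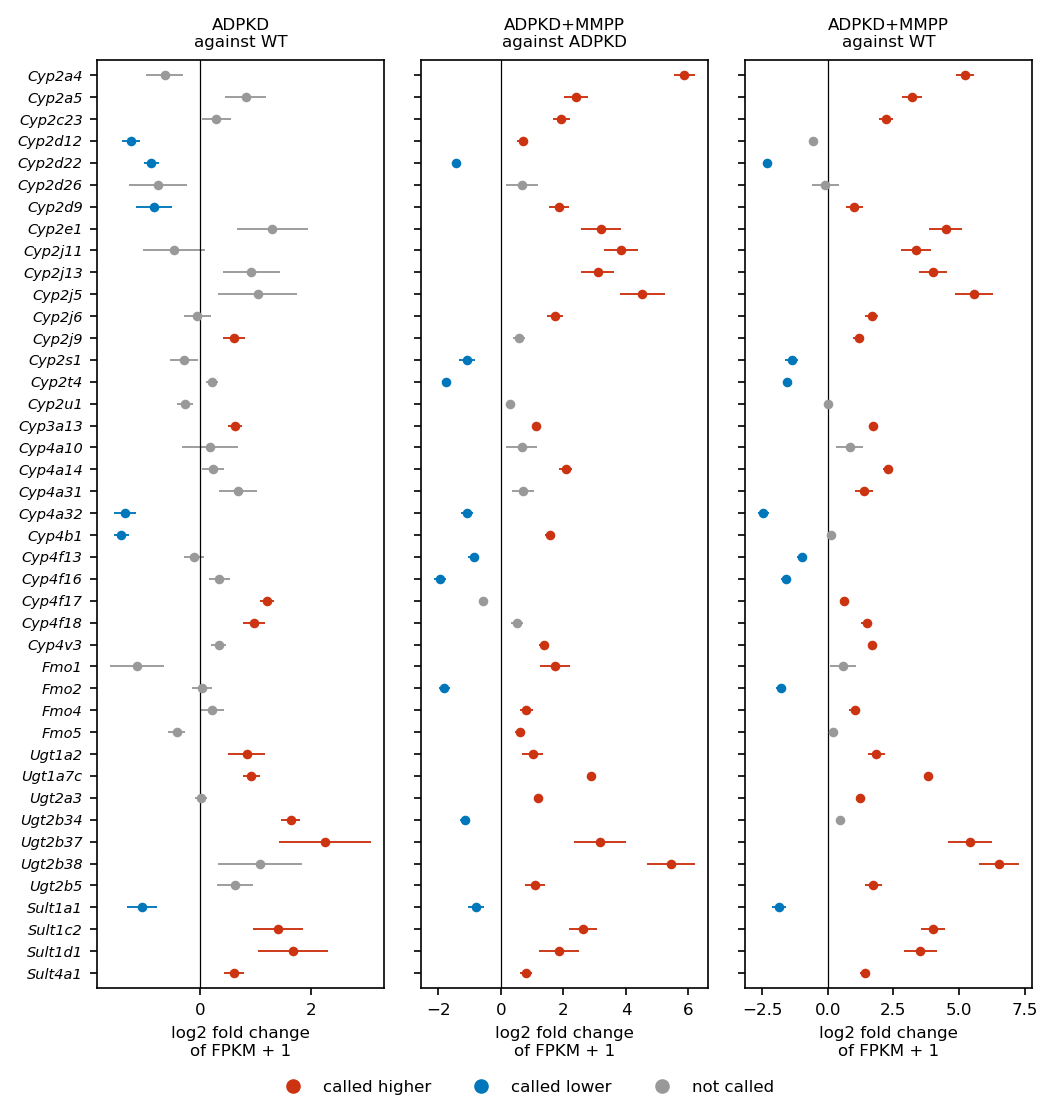
Log2 fold change of FPKM + 1 (horizontal axes, each with its own range) with SE bars from limma for the 42 tested members in the 3 comparisons, coloured by call. Of the 42, 11 were called higher and 6 lower in ADPKD against WT, and the middle panel holds 26 called higher and 9 lower.

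In ADPKD+MMPP against WT, 26 of the 42 tested members were called higher, against 30.1% of all tested genes, and 8 lower, against 43.8% of all tested genes. These were 61.9% and 19.0% of the tested members. Cyp2c23, Cyp3a13, Sult4a1 and Ugt2a3, which passed the filter only through ADPKD+MMPP, were again among those higher and are no support for a direction. The median log2 fold change was 1.31 over the members and -0.36 over all tested genes. Centring by annotation left 27 higher and 2 lower, against 35.8% and 26.8% of the protein-coding genes so centred. Largest were Ugt2b38 with 6.53 (SE 0.76, limma adjusted p = 0.000498), Cyp2j5 with 5.56 (SE 0.72, limma adjusted p = 0.000746) and Ugt2b37 with 5.42 (SE 0.84, limma adjusted p = 0.0016). Cyp2d22 with -2.31 (SE 0.13, limma adjusted p = 4.07e-05) and Sult1a1 with -1.85 (SE 0.27, limma adjusted p = 0.0012) were at the other end, along with Cyp4a32, which was listed at 0 after treatment. Fmo1 and Cyp4b1, which had moved in ADPKD+MMPP against ADPKD, did not pass the test against WT, though both did after centring, at 1.24 and 1.79. Before centring Fmo1 lay above WT by 0.59, past the fold threshold and without overlap of the groups. The spread in its test also took in the ADPKD libraries, which lay apart at 6.63 and 1.598 FPKM.

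The change in ADPKD+MMPP differed between members by how the annotation describes them. All 12 tested members with 1 annotated transcript were called higher over ADPKD, with a median of 2.17. Of the 12, Cyp3a13 and Ugt2a3 had passed the filter only through ADPKD+MMPP, so the count is a description and no support for a direction. Beside it, 70.0% of the 1309 tested protein-coding genes with 1 transcript were called higher and 6.57% lower, with a median of 1.10. Of the 30 members with more transcripts, 14 were higher and 9 lower, with a median of 0.67, while 25.1% of the 11066 such protein-coding genes were higher and 46.3% lower, with a median of -0.46. Each library was therefore also centred within 20 bins of the share of exon bases that lie in exactly 1 transcript. After centring, 24 members were called higher and 0 lower over ADPKD in limma, with 0 lower also at an unadjusted P under 0.05 alone, and 19 of the 26 first called higher were among the 24. Of all protein-coding genes so centred, 33.8% were called higher and 24.5% lower. Cyp2d22, Sult1a1 and Ugt2b34, all called lower before, turned to positive values, and Cyp3a13, Ugt1a2 and Ugt2b5, all called higher before, turned to negative ones. Cyp2t4 and Cyp4a32, listed at 0 in both ADPKD+MMPP libraries, also lost their lower call. Centring takes a bin median from a listed 0, so it cannot show whether they fell. Nor can it for Ugt2b34, whose level in ADPKD was so low that even a complete loss would not have stayed called. Cyp2j6, Cyp4v3, Sult1d1 and Ugt2a3 also lost their call. The rise of Cyp2a4, Cyp2a5, Cyp2e1, Cyp2j5, Cyp2j11, Cyp2j13, Cyp4b1, Sult1c2, Ugt1a7c, Ugt2b37 and Ugt2b38 stayed called, at 4.71, 4.04, 4.91, 3.37, 2.68, 3.08, 3.27, 1.46, 4.08, 2.01 and 4.29 on the log2 scale in that order.

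**Figure D4:**
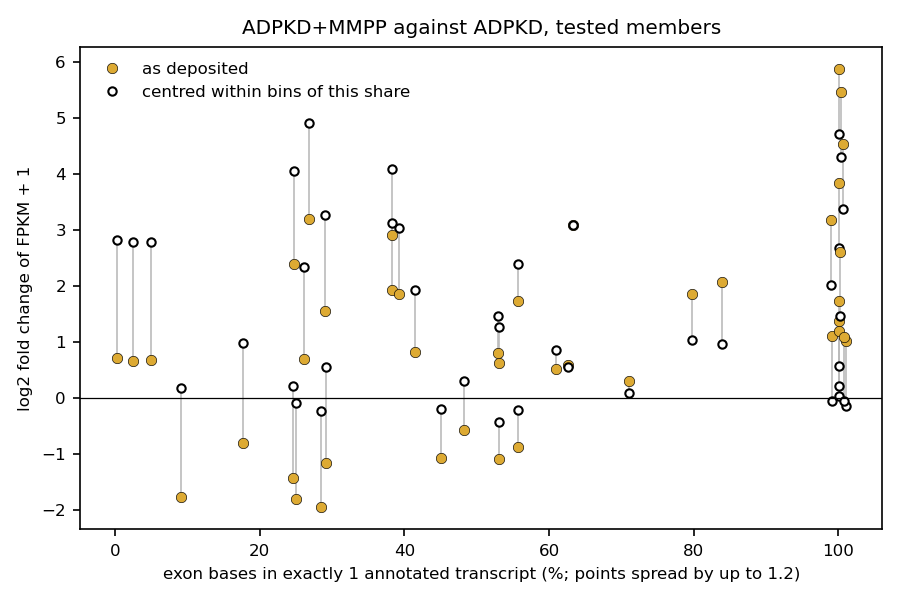
Log2 fold change of FPKM + 1 in ADPKD+MMPP against ADPKD (vertical axis) against the percentage of exon bases in exactly 1 annotated transcript (horizontal axis) for the 42 tested members, as deposited (filled) and after centring each library within bins of that percentage (open), with a line joining both values of a gene. Filled points at 100% all lie above 0, and after centring 0 members were called lower.

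Partners of these enzymes were described from lists of other genes. Por, the reductase that passes electrons to every microsomal P450, had 58.3 and 52.5 FPKM in WT, 35.3 and 49.9 in ADPKD, and 15.7 and 14.9 in ADPKD+MMPP. Of the 5 redox partners tested, 0 were called in ADPKD against WT in limma, where none had an unadjusted P under 0.05, while ADPKD+MMPP against ADPKD gave 1 higher (Cyb5b) and 3 lower (Por, Cyb5r1 and Cyb5r3). Por fell by 1.40 (SE 0.19, limma adjusted p = 0.000964), and 35.6% of its exon bases lie in exactly 1 transcript. Of tested protein-coding genes with more than 1 transcript, as Por is, 46.3% were called lower in that comparison. Ephx1, 1 of 2 listed epoxide hydrolases that follow P450s, had 143 and 144 FPKM in WT, 99.7 and 92.0 in ADPKD, and 1.48 and 0.752 in ADPKD+MMPP, and 10.7% of its exon bases lie in exactly 1 transcript. Ephx2, the other, did not fall, with 12.1 and 10.6 FPKM in WT, 14.9 and 3.72 in ADPKD, and 19.4 and 18.9 in ADPKD+MMPP. It was not called over ADPKD.

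Of 7 genes that supply cofactors for glucuronidation and sulfation, 2 were higher and 0 lower in ADPKD against WT, against 14.2% and 12.5% of all tested genes. Papss2, 1 of 2 synthases of the sulfate donor, had 2.56 and 1.86 FPKM in WT, 12.5 and 10.2 in ADPKD, and 2.82 and 1.68 in ADPKD+MMPP, and 2.8% of its exon bases lie in exactly 1 transcript. Papss1, the other synthase, had 36.5 and 32.7 FPKM in WT and 41.9 and 26.7 in ADPKD, was not called there, and had 7.05 and 8.05 in ADPKD+MMPP. Of its exon bases 4.9% lie in exactly 1 transcript. Ugdh, which makes UDP-glucuronic acid, had 6.25 and 11.3 FPKM in WT, 19.1 and 24.3 in ADPKD, and 13.4 and 12.4 in ADPKD+MMPP. In ADPKD+MMPP against ADPKD 1 was called higher and 5 lower, against 27.9% and 43.0% of all tested genes. Papss2 and Ugdh had their highest values in ADPKD.

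Of 22 receptors and lineage factors known to control these families, 17 were tested. ADPKD against WT gave 5 higher and 1 lower, against 14.2% and 12.5% of all tested genes. ADPKD+MMPP against ADPKD gave 4 higher and 6 lower, against 27.9% and 43.0%, so the counts are a description only. Nr1i2, the pregnane X receptor, had 0.256 and 0.228 FPKM in WT, 1.09 and 0.892 in ADPKD, and 4.05 and 3.09 in ADPKD+MMPP. Ahr, the aryl hydrocarbon receptor, had 5.58 and 5.42 FPKM in WT, 11.1 and 16.3 in ADPKD, and 12.5 and 13.3 in ADPKD+MMPP. Hnf4a, a factor of proximal tubule and liver, had 2.36 and 2.32 FPKM in WT, 7.28 and 5.37 in ADPKD, and 0.035 in 1 ADPKD+MMPP library and a listed 0 in the other, and 9.8% of its exon bases lie in exactly 1 transcript. Nr1i3, the constitutive androstane receptor, stayed at or below 0.0296 FPKM in every library. Of 27 other P450 genes, 13 were tested, where ADPKD against WT gave 1 higher and 4 lower, and ADPKD+MMPP against ADPKD gave 5 higher and 6 lower, beside the same shares of all tested genes. Cyp4a12a, a fatty acid omega-hydroxylase close to the members, rose from 1.67 and 0.245 FPKM in ADPKD to 65.5 and 59.8 in ADPKD+MMPP. Nr1i2 and Cyp4a12a have 1 transcript, and 70.0% of tested protein-coding genes with 1 transcript were called higher over ADPKD.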

How the data were processed

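RNA-seq values came from 6 libraries of DBA-positive mouse kidney cells, 2 in each of 3 groups taken from the labels. The authors used HISAT2 2.1.0 for alignment to mm10 (GRCm38) and featureCounts 1.6.0 for counting, per the submitters' processing notes, and deposited FPKM, which is a count divided by gene length and library size. Their own test on counts could not be run on FPKM, so limma 3.58.1 (R 4.3.3) was applied to log2(FPKM + 1) of the 14862 genes that reached an FPKM of 1 in 2 or more libraries, with all 6 libraries in 1 fit. A call needed a fold change of at least 1.5 and an unadjusted P under 0.05, with Benjamini-Hochberg adjusted p over all tested genes beside it. The fold change on this scale understates the change of low genes.

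GENCODE vM21 matched 53186 of 55367 symbols and gave exon lengths, transcripts and coding sequences. Low FPKM multiplied by exon length came in whole steps, which gave the depth, and 98.4% to 99.1% of low values came out whole within 0.05 reads. In ADPKD+MMPP 7.08% and 7.25% of the low read numbers were odd, so most were even. The unit of a read, and with it depth and floor, may thus differ between that group and the others. At these depths 3 reads were taken as the floor, and floors cover counting error only. Promoters were 250 bases before to 50 after each start, from RefSeq on GRCm38.p6, and 99 members had one. The fit was tested on simulated data. Tables and plots were made in Python 3.11.15.

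Named members had a group mean FPKM of at least 5, or were among the 3 highest or lowest changes of a comparison without overlap of the groups. Cyp2c23, Cyp2j9, Cyp3a13, Sult4a1, Ugt1a2, Ugt2a3 and Ugt2b5 were named after their values were seen. Members, gene lists and marker lists were chosen with earlier results of these data known. Alternatives covered the pseudocount, filter, scaling, trend, groups in the fit, call rule, replicate block, omitted replicates and centring by annotation. Restricting to genes with 1 transcript was chosen after seeing the data.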

Additional observations from a re-analysis of the deposited data

How the results depend on the processing

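With 2 libraries per group and FPKM for values, small changes of low members were not detectable at this depth. In ADPKD against WT, members called higher numbered 11, but 5 with an adjusted p, 5 at a fold change of 2 and 7 when only the groups compared entered the fit. Of all tested genes, 14.2%, 11.9%, 6.84% and 13.6% were called higher in that order. Leaving out 1 library at a time, members called higher and lower ranged from 5 to 17 and from 5 to 11 in ADPKD against WT, from 20 to 30 and from 8 to 9 in ADPKD+MMPP against ADPKD, and from 24 to 27 and from 8 to 9 in ADPKD+MMPP against WT. In ADPKD against WT the higher calls were 7 without WT replicate 1, 5 without WT replicate 2, 17 without ADPKD replicate 2, and 7 without either ADPKD+MMPP library, and the lower calls were 11 without ADPKD replicate 1. Members called lower in ADPKD+MMPP against ADPKD were 4 after quantile normalization, against 30.8% of all tested genes. After centring on the share of bases found in a single transcript, members called lower were 0 against ADPKD and 2 against WT. Of all protein-coding genes so centred, 24.5% and 26.8% were called lower. The centring turned the log2 fold change of ADPKD+MMPP against ADPKD to 0.22 for Cyp2d22, 0.17 for Cyp2t4, 0.98 for Sult1a1 and 0.56 for Ugt2b34, and against WT to 1.05 for Cyp2d12, 1.88 for Cyp2d26, 0.41 for Cyp2t4, 0.06 for Cyp4f16 and 0.08 for Sult1a1. Cyp2t4 and Ugt2b34 were too low in ADPKD for any fall to be called after centring. The cause was not tested. Among only genes with 1 transcript, where 12 members remain, centred higher and lower calls were 2 and 0, 6 and 0, and 6 and 0 in the 3 comparisons. Of all 1309 such genes, 15.8% and 20.6%, 21.9% and 26.2%, and 24.9% and 31.6% were called. The median log2 fold change of all genes in ADPKD+MMPP against ADPKD was -0.36, and -0.55 with a common sum, -0.21 with median of ratios and 0.10 after quantile normalization. Same-numbered libraries deviated together with r from -0.00796 to 0.129, so the numbers do not pair them, and a replicate block gave 11 and 9, 27 and 9, and 27 and 8 calls in the 3 comparisons. With that block 14.5% and 12.8%, 28.0% and 43.3%, and 30.3% and 44.0% of all tested genes were called.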
